A study of Saccharomyces cerevisiae with 15 samples.

Results

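The comparison described here sets 3 cultures of budding yeast, Saccharomyces cerevisiae, in which PDR1 was deleted and a Pdr1-Cyc8 fusion protein was expressed, against 3 cultures that carried an empty vector. These are 6 of the 15 arrays of the study, and they were chosen by their sample titles alone. The labels name no deletion for the empty vector cultures, so the comparison takes in the loss of PDR1 and the expression of the fusion together. The other 9 arrays, in 3 groups of 3, came from yeast with the Pdr1-Cyc8 fusion and no deletion named (called Pdr1-Cyc8 with endogenous PDR1 below), yeast with a Pdr1-Sin3 fusion, and yeast with the PDR1 deletion. All 15 cultures were in logarithmic growth at 30 °C in synthetic dextrose medium, and labelled cRNA was made from 10 ug of total RNA for hybridisation to Affymetrix YG-S98 arrays. The sources used here do not give the strain background, the vector, the promoter or the parts of each gene held in the fusions. The replicates are named biological in the sample titles. Below, the fusion group, fusion cultures and fusion replicates without further name are those with Pdr1-Cyc8 in the deletion.

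Pdr1, a transcription factor of the zinc cluster family, switches on the pleiotropic drug resistance (PDR) genes, which encode membrane pumps of the ABC family and proteins of lipid metabolism. Cyc8, also called Ssn6, works with Tup1 as a general corepressor that reaches promoters through DNA-binding repressors. Glucose-repressed genes, flocculin genes, hypoxic genes and mating-type genes are among the groups known to be kept low by Cyc8-Tup1. The study's design text states that repressors built on Pdr1 were tested for their effect on gene expression.

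Each array gave 1 signal for each of 9335 probe sets, of which 9275 were tested and 60 were controls. Levels below are log2(signal + 16) after quantile normalisation, and differences are log2 differences, the Pdr1-Cyc8 in deletion mean minus the empty vector mean, with the standard error (SE) from limma. A probe set was called at a Benjamini-Hochberg adjusted p under 0.05 over all 9275. The median signal of the 6 arrays was 115.7 to 121.1 with the empty vector and 128.9 to 141.0 in the fusion group. The number of arrays, 3 per group, limits the precision of every value.

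The groups also differed in 1 of their hybridisation spike-ins, which are added to the sample and do not come from yeast. On the log2 scale BioC averaged 9.49 to 9.93 on the empty vector arrays and 7.67 to 8.54 in the fusion group. The averages overlapped for BioB (8.16 to 8.81 against 7.90 to 8.77), BioDn (10.93 to 11.42 against 10.77 to 11.48) and CreX (12.82 to 13.34 against 13.02 to 13.41). On the log2 scale, BioC minus BioB was 1.11 to 1.32 on the empty vector arrays and -0.36 to -0.23 on the Pdr1-Cyc8 in deletion arrays. The deletion and Pdr1-Cyc8 arrays resembled the empty vector arrays in this respect, at 1.02 to 1.22, whereas the Pdr1-Sin3 arrays were at -0.64 to -0.20. Group and spike-in set therefore cannot be told apart in the comparison with the empty vector. A comparison with Pdr1-Sin3, which shares this second spike-in pattern with Pdr1-Cyc8 in the deletion, is given beside it. Limma called 2.52% of probe sets against Pdr1-Sin3 and 11.2% against Pdr1-Cyc8. All such comparisons share the 3 Pdr1-Cyc8 in deletion arrays, so they are not independent of each other.

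**Figure D1:**
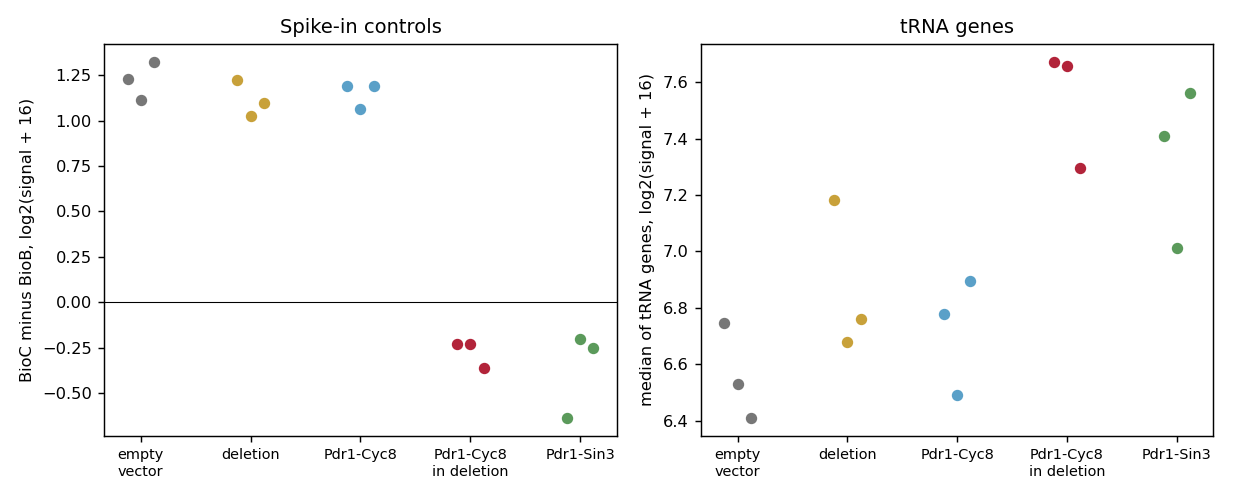
Spike-in controls and tRNA genes by array. The left panel plots the mean of the BioC probe sets minus the mean of the BioB probe sets on each array (log2), and the right panel the median level of 91 tRNA genes (log2(signal + 16)); each point is 1 of 3 arrays of a group. The Pdr1-Cyc8 in deletion and Pdr1-Sin3 arrays lie below 0 in the left panel and the other 9 arrays lie above 1.

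Limma called 784 of 9275 probe sets (8.45%), 414 of them higher and 370 lower with Pdr1-Cyc8 in the deletion. With the values as deposited the median over all probe sets moved from 0.01 to 0.14, and the split became 613 higher and 302 lower (67.0% higher, against 52.8%). With median centring it turned the other way, to 342 higher and 429 lower (44.4% higher, median -0.02). The total fell to 370 without empty vector replicate 2, to 460 without Pdr1-Cyc8 in deletion replicate 1 and to 464 without its replicate 3. With each gene represented by its brightest probe set, 301 of 5656 genes were called higher (5.32%) and 136 lower (2.4%), and the median difference over all genes was 0.05. Without overlap between the groups, 20.2% of genes were higher and 11.7% lower, whether called or not. Counts over gene groups and lack of overlap below are to be read against these shares. RNA came from whole cultures, so a change in a share of the cells and a change in the RNA per cell cannot be told apart.

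The genes used to build the strain were examined first. PDR1 read 9.04, 9.25 and 8.93 with the empty vector and 6.80, 7.21 and 6.81 with Pdr1-Cyc8 in the deletion. It fell by 2.14 (SE 0.226, adjusted p = 4.78e-05), without overlap between the groups. In the deletion without the fusion PDR1 read 5.04, 4.79 and 4.27, below all 3 values with the fusion. CYC8 read 8.64, 8.75 and 8.68 with the empty vector and 11.79, 11.97 and 10.99 with Pdr1-Cyc8 in the deletion, a rise of 2.89 (SE 0.27, adjusted p = 1.89e-05). Every culture of the fusion group lay above every empty vector culture for CYC8. The probe sets may read the fusion, the endogenous gene or both. SIN3, the subunit of a histone deacetylase complex used in the other fusion, differed by 0.11 (SE 0.216, adjusted p = 0.819). TUP1, the partner of Cyc8, gave -0.83 (SE 0.3, adjusted p = 0.102), with 9.97, 10.15 and 9.53 against 8.97, 8.98 and 9.22. The 3 TUP1 values in the fusion group lay below those of the empty vector, as for 11.7% of all genes. The TUP1 difference did not pass the test, and array weights gave an adjusted p of 0.0468.

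Among probe sets with no gene in the annotation, the probe set with the largest rise from the empty vector to the deletion gives a further check of the strains. It read 13.79 to 14.12 in the deletion group and 4.17 to 4.69 in the group labelled Pdr1-Cyc8 in the deletion, where the empty vector group read 4.17 to 4.28. The 2 groups labelled with the deletion therefore differed at this probe set. The mean of the deletion group does not enter the difference from the empty vector. Its arrays do enter the quantile normalisation and the shared estimate of the spread.

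Glucose uptake in yeast rests on a family of hexose transporters, of which Hxt1 and Hxt3 have low affinity and serve cells in ample glucose, and Hxt2, Hxt6 and Hxt7 have high affinity and serve cells in scarce glucose. With Pdr1-Cyc8 in the deletion the high-affinity transporter genes rose and the low-affinity genes fell. HXT2 read 8.0, 8.22 and 6.80 with the empty vector and 11.48, 10.98 and 12.05 with Pdr1-Cyc8 in the deletion. It rose by 3.83 (SE 0.55, adjusted p = 0.000624), and the lowest fusion culture lay well above the highest empty vector culture. HXT6 read 11.10, 11.37 and 10.16 against 13.36, 13.05 and 13.27, a rise of 2.35 (SE 0.307, adjusted p = 0.000254). HXT7 read 11.00, 11.44 and 10.26 against 12.76, 12.56 and 12.68, a rise of 1.77 (SE 0.294, adjusted p = 0.00194). HXT6 and HXT7 are nearly identical in sequence, so their probe sets can read each other's transcripts and they count as 1 observation. Empty vector replicate 3 was the lowest of its group for HXT2, HXT6 and HXT7.

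HXT3 read 12.65, 12.84 and 12.45 with the empty vector and 10.27, 9.86 and 10.13 with Pdr1-Cyc8 in the deletion. It fell by 2.56 (SE 0.292, adjusted p = 8.54e-05). HXT1 read 11.60, 11.87 and 10.94 against 10.21, 10.32 and 10.52. The HXT1 groups did not overlap, and the difference of -1.12 (SE 0.25, adjusted p = 0.012) missed the threshold without empty vector replicate 2 (adjusted p = 0.0676). Of 11 hexose transporter genes measured, HXT2, HXT6 and HXT7 were called higher, of which HXT6 and HXT7 cannot be told apart, and HXT1 and HXT3 were called lower. The other 6 ranged from -0.59 to 0.91. HXT4, another glucose-regulated transporter gene, was among them at -0.59 (adjusted p = 0.38).

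Mig1 and Mig2 are zinc finger repressors that recruit Cyc8-Tup1 to glucose-repressed promoters. MIG2 read 9.72, 10.24 and 9.07 with the empty vector and 6.25, 6.23 and 6.45 with Pdr1-Cyc8 in the deletion. It fell by 3.37 (SE 0.315, adjusted p = 1.89e-05), and the fusion cultures were close together, far below the empty vector cultures. MIG1 gave 0.66 (SE 0.277, adjusted p = 0.158), with 6.79, 6.92 and 6.27 against 7.29, 7.25 and 7.42. All 3 MIG1 values of the fusion group were above those of the empty vector, as for 20.2% of all genes. The MIG1 difference did not pass the test.

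Among the kinases that phosphorylate hexoses, HXK1, a hexokinase made when glucose is scarce, read 9.51, 10.92 and 9.72 with the empty vector and 12.33, 12.40 and 12.36 with Pdr1-Cyc8 in the deletion. It rose by 2.31 (SE 0.37, adjusted p = 0.00147). EMI2, a paralog of the glucokinase gene, rose by 1.5 (SE 0.314, adjusted p = 0.00866). HXK2, the hexokinase of glucose-grown cells, gave 0.65 (adjusted p = 0.423). MIG3, a paralog of MIG1 and MIG2, was called at 1.31 (adjusted p = 0.043) but lost the call whichever of the 6 arrays was left out (adjusted p = 0.0673 to 0.14), and its difference was 0.69 with a pseudocount of 64. The glucokinase gene GLK1 was called at 1.20 (adjusted p = 0.0379); it lost the call whichever array other than empty vector replicate 2 was left out (adjusted p = 0.0571 to 0.135), and its difference was 0.72 without empty vector replicate 1. In all, 4 of 22 genes of glucose signalling and hexose kinases rose and 1 fell, with 2 or 3 higher when 1 array was left out. The median of the 22 was 0.50, against 0.05 over all genes.

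**Figure D2:**
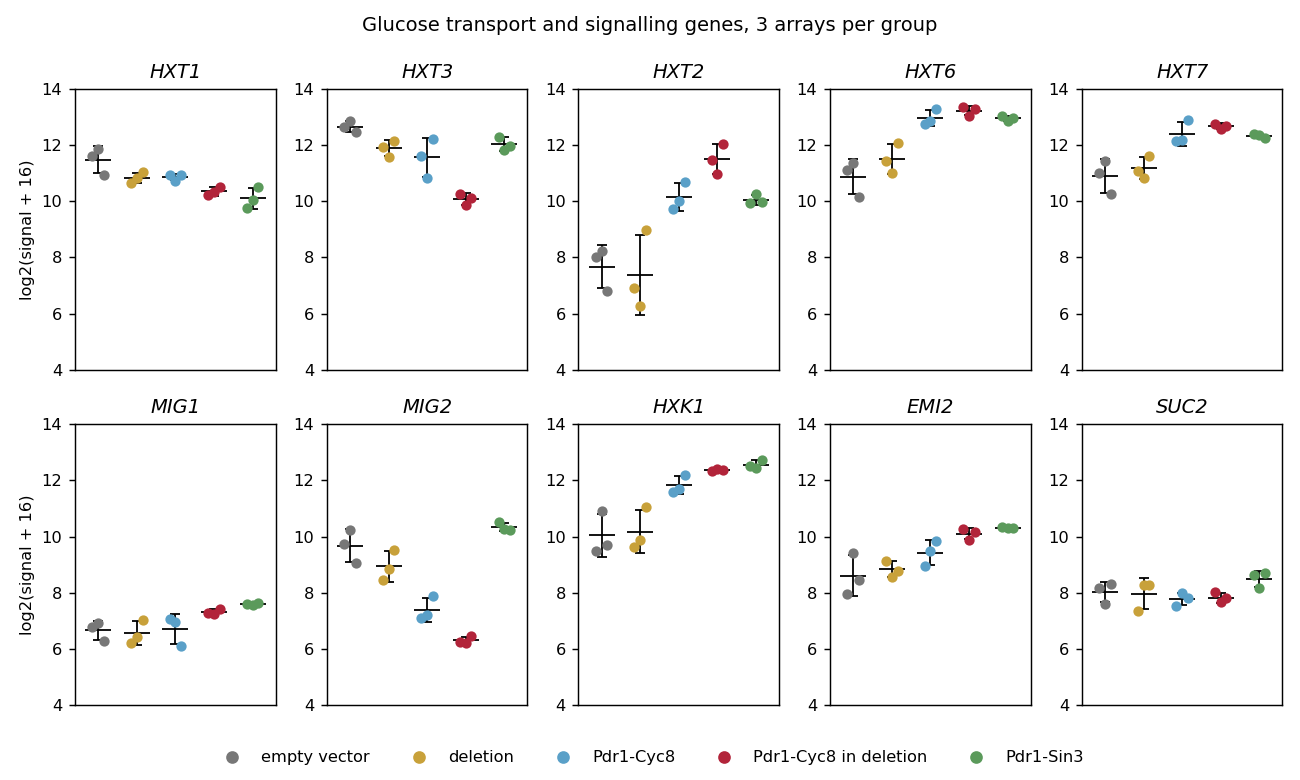
Levels of 10 glucose transport and signalling genes (log2(signal + 16), vertical axis) in the 5 groups. Points are the 3 arrays of a group, horizontal bars the mean and error bars 1 SD; HXT2, HXT6, HXT7, HXK1 and EMI2 are higher and HXT1, HXT3 and MIG2 lower with Pdr1-Cyc8 in the deletion than with the empty vector, while MIG1 and SUC2 did not pass the test.

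Few genes of metabolism that glucose represses were called. Of 28 measured, 3 were called higher and 1 lower, and their median was 0.13. SUC2, which encodes invertase and is the classical glucose-repressed gene, read 8.19, 7.61 and 8.30 with the empty vector and 8.02, 7.66 and 7.80 in the fusion cultures. The SUC2 values overlapped, and the difference was -0.20 (SE 0.277, adjusted p = 0.723). The higher calls were JEN1, a lactate transporter (1.62, adjusted p = 0.0325), GUT2, the mitochondrial glycerol-3-phosphate dehydrogenase (1.27, adjusted p = 0.0198), and ADR1, an activator of genes for growth without glucose (1.12, adjusted p = 0.0148). Each of these calls was lost in some of the 6 fits that left out 1 array. Over all 6 fits the differences ran from 1.52 to 1.72 for JEN1, 1.21 to 1.40 for GUT2 and 0.95 to 1.22 for ADR1. JEN1 lost its call whichever of the 6 arrays was left out (adjusted p = 0.06 to 0.0923), GUT2 without replicate 3 of either group, empty vector replicate 2 or fusion replicate 1 (0.0599 to 0.0686), and ADR1 without replicate 1 of either group (0.0556 to 0.0637). Between 0 and 2 of the 28 genes were called higher when 1 array was left out. GAL3, the galactose sensor, fell by 1.15 (SE 0.247, adjusted p = 0.0101), at low levels where the value moved to -1.90 with a pseudocount of 1 and to -0.53 with 64. JEN1 was also near the floor of the scale, and its value moved to 2.60 and 0.78.

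The same genes were compared with Pdr1-Sin3, within the second spike-in pattern. MIG2 was lower with Pdr1-Cyc8 in the deletion, with a difference of -4.03 (SE 0.315, adjusted p = 6.2e-06), and so was HXT3, at -1.95 (SE 0.292, adjusted p = 0.00242). Both calls were kept under every alternative tried. HXT2 differed by 1.46 (adjusted p = 0.174), HXT6 by 0.27 (adjusted p = 0.704), HXT7 by 0.33 (adjusted p = 0.612), HXT1 by 0.24 (adjusted p = 0.676) and HXK1 by -0.19 (adjusted p = 0.844), and none of these passed. Against Pdr1-Cyc8 with endogenous PDR1, whose arrays have the spike-in pattern of the empty vector, HXT3 differed by -1.47 (adjusted p = 0.0068), HXT2 by 1.36 (adjusted p = 0.124), HXT6 by 0.26 (adjusted p = 0.634), HXK1 by 0.53 (adjusted p = 0.379) and MIG2 by -1.09 (adjusted p = 0.0382). The MIG2 difference lost its call whichever of the arrays compared was left out, and its adjusted p ran from 0.0258 to 0.119 over all alternatives.

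The yeast cell surface is a layer of glucan, chitin and mannoproteins, and flocculins are surface proteins through which cells bind each other. FLO1, the main flocculin gene, read 4.27, 4.24 and 4.31 with the empty vector, near the floor of the scale, and 8.28, 8.40 and 7.84 in the cultures with the fusion and the deletion. The groups lay far apart, and the fitted difference was 3.90 (SE 0.401, adjusted p = 3.56e-05). Its size depends on the pseudocount, with 5.99 for a pseudocount of 1 and 2.33 for 64. FLO1 was also called against Pdr1-Sin3 (3.57, adjusted p = 0.000116), where those cultures read 5.42, 4.17 and 4.23. Against Pdr1-Cyc8 with endogenous PDR1, at 5.60, 7.21 and 7.38, the difference was 1.44 (adjusted p = 0.0322), with an adjusted p of 0.0127 to 0.171 over the alternatives. FLO1 was the only 1 of 5 flocculin genes to pass. FLO5, whose sequence is close to that of FLO1, gave -0.03 (adjusted p = 0.982), FLO10 -0.61 (adjusted p = 0.524) and FLO11, needed for filamentous growth, 0.31 (adjusted p = 0.438).

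Cell wall mannoprotein genes changed in both directions. YGP1, which encodes a secreted glycoprotein, read 12.75, 13.17 and 12.89 with the empty vector and 9.29, 9.29 and 9.83 with Pdr1-Cyc8 in the deletion. It fell by 3.47 (SE 0.286, adjusted p = 8.64e-06), the lowest difference of the 5656 genes in this comparison. HPF1, a mannoprotein known for preventing protein haze in wine, read 10.15, 9.58 and 8.81 against 12.12, 11.95 and 12.32. It rose by 2.62 (SE 0.505, adjusted p = 0.00532), with the empty vector cultures more spread than those of the fusion. TIR3, a mannoprotein of the anaerobic cell wall, read 9.38, 8.74 and 9.09 against 11.74, 10.80 and 11.62, a rise of 2.32 (SE 0.292, adjusted p = 0.000192). Its relative TIR1 rose by 1.47 (SE 0.323, adjusted p = 0.0114), with empty vector replicate 3 at 9.40 below the other two at 10.66 and 10.74. AGA1, the anchor subunit of a-agglutinin, fell by 1.59 (SE 0.284, adjusted p = 0.00346). CWP1, a major mannoprotein, was called at 1.43 (adjusted p = 0.0434), and the call was lost whichever array other than empty vector replicate 2 was left out (adjusted p = 0.0613 to 0.171). Over the 35 genes measured 4 rose and 2 fell, with 3 to 5 higher when 1 array was left out, and the median was -0.01.

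YGP1 was also lower with Pdr1-Cyc8 in the deletion than with Pdr1-Sin3, by a difference of -2.90 (adjusted p = 3.76e-05), and than with Pdr1-Cyc8 and endogenous PDR1, by -2.41 (adjusted p = 0.000172). Both calls were kept under every alternative. HPF1 differed from Pdr1-Cyc8 by 3.06 (adjusted p = 0.00237) and from Pdr1-Sin3 by 2.13 (adjusted p = 0.0373), where the adjusted p ran from 0.00119 to 0.117 over the alternatives. TIR1 differed from Pdr1-Sin3 by -0.17 (adjusted p = 0.846). AGA1 differed from Pdr1-Cyc8 by -2.54 (adjusted p = 0.000104) and from Pdr1-Sin3 by -1.06 (adjusted p = 0.0595).

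Of 29 genes of chitin and glucan synthesis and remodelling, 3 rose and 2 fell, and 20 of the 29 had values below 0 (median -0.22). SHC1, an activator of chitin synthase in sporulating cells, read 5.74, 5.47 and 5.20 with the empty vector and 7.42, 7.49 and 7.63 with Pdr1-Cyc8 in the deletion. It rose by 2.04 (SE 0.243, adjusted p = 0.000127), and by 1.32 with a pseudocount of 64. CHS3, the catalytic subunit of the chitin synthase that makes most cell wall chitin, read 9.51, 9.64 and 9.63 against 8.55, 8.17 and 8.77, and fell by 1.10 (SE 0.214, adjusted p = 0.00568). SHC1 and CHS3 thus moved in opposite directions, each without overlap between the groups. KNH1, a gene of glucan synthesis, rose by 1.21 (SE 0.244, adjusted p = 0.007). UTR2 and CRH1 encode related enzymes that join chitin to glucan, and they differed by 1.09 (adjusted p = 0.0363) and -1.07 (adjusted p = 0.0221). UTR2 lost its call whichever of the 6 arrays was left out (adjusted p = 0.0599 to 0.126), and CRH1 whichever array other than fusion replicate 3 was left out (0.0501 to 0.0853).

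**Figure D3:**
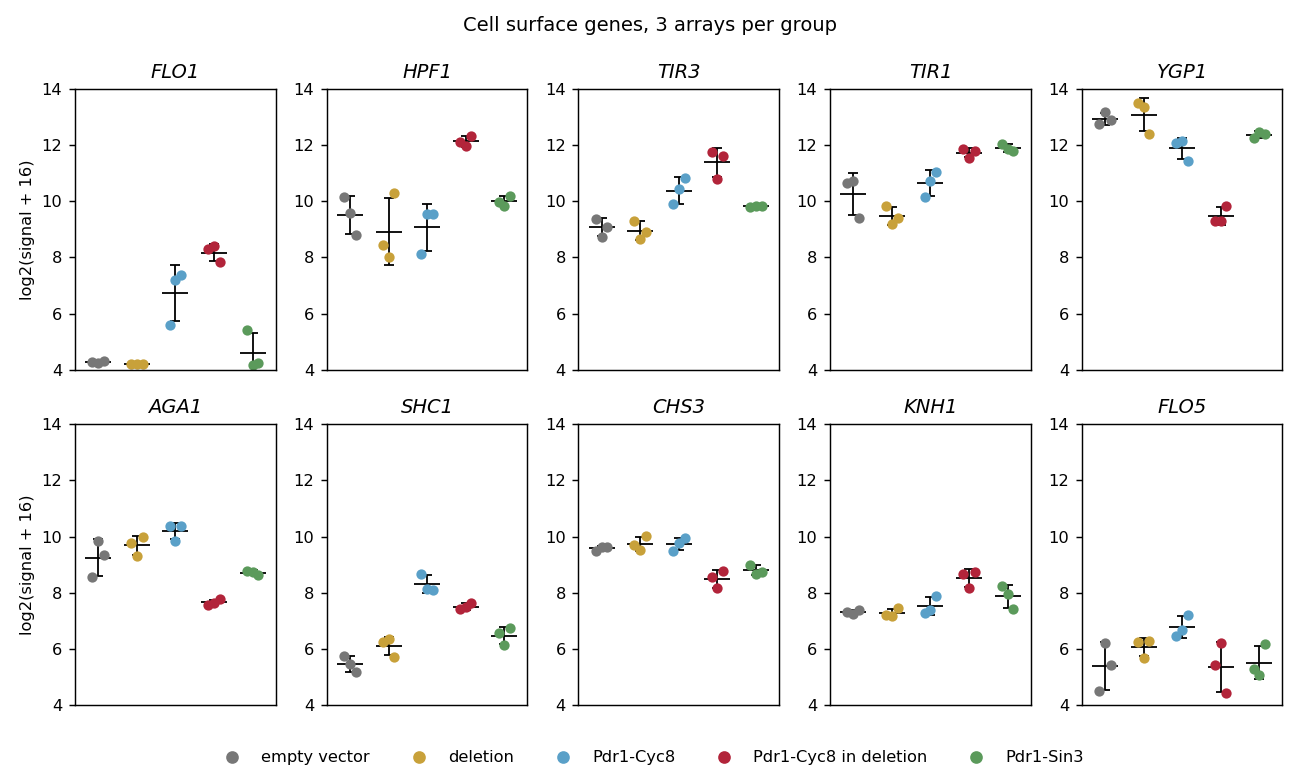
Levels of 10 cell surface genes (log2(signal + 16), vertical axis) in the 5 groups, with points for the 3 arrays of a group, horizontal bars for the mean and error bars for 1 SD. FLO1, HPF1, TIR3, TIR1, SHC1 and KNH1 are higher and YGP1, AGA1 and CHS3 lower with Pdr1-Cyc8 in the deletion than with the empty vector, and FLO5 overlaps.

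Yeast has 2 cytochrome c genes, CYC1 for the main aerobic isoform and CYC7 for the isoform made when oxygen is low. CYC7 read 5.05, 5.66 and 5.13 with the empty vector and 7.79, 8.73 and 8.41 with Pdr1-Cyc8 in the deletion. It rose by 3.03 (SE 0.315, adjusted p = 3.96e-05), or by 3.68 and 2.07 with pseudocounts of 1 and 64. CYC1 read 8.71, 8.99 and 8.41 against 8.54, 8.87 and 8.88, and the values overlapped (0.06, SE 0.271, adjusted p = 0.931). Against Pdr1-Sin3 it was CYC1 that differed (1.51, adjusted p = 0.00897), and that call was lost without Pdr1-Sin3 replicate 1 (0.0573, the highest of its alternatives). CYC7 differed from Pdr1-Sin3 by 0.82 (adjusted p = 0.182) and from Pdr1-Cyc8 by 1.04 (adjusted p = 0.0464, with 0.0227 to 0.173 over the alternatives). CYC7 was the only 1 of the 21 listed cytochrome c and hypoxic genes to pass, and the other 20 ranged from -0.70 to 0.68. TIR3, of the anaerobic cell wall, and its relative TIR1 also rose (2.32 and 1.47), but were counted with the mannoproteins above.

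Genes of the respiratory chain and ATP synthase were mostly above 0, by small amounts. Of 36 measured, 33 had values above 0, with a median of 0.52 against 0.05 over all genes, and 7 were called higher and 0 lower. The groups did not overlap for 19 of the 36, all higher, where 20.2% of all genes were higher without overlap. COX4, a subunit of cytochrome c oxidase, read 9.78, 9.65 and 9.90 against 10.57, 10.88 and 10.96, a rise of 1.03 (SE 0.206, adjusted p = 0.00667). ATP16, a subunit of the ATP synthase, read 10.03, 9.76 and 10.09 against 10.88, 11.09 and 11.08, a rise of 1.06 (SE 0.201, adjusted p = 0.00505). ATP15, another ATP synthase subunit, rose by 0.86 (adjusted p = 0.00924), and with median centring its difference was 0.61 and missed the threshold (adjusted p = 0.0523). CYT1, QCR7 and QCR9, of the cytochrome bc1 complex, gave 1.08, 1.01 and 0.95 (adjusted p = 0.0224, 0.0277 and 0.0494). The CYT1 call was lost without replicate 3 of either group, empty vector replicate 1 or fusion replicate 2 (0.0724 to 0.0953), and QCR7 and QCR9 lost theirs whichever array other than fusion replicate 1 was left out (0.0688 to 0.102 and 0.0881 to 0.175). The remaining call was COX13 (0.67, adjusted p = 0.0496). With median centring 3 of the 36 were called, and with 1 array left out 3 to 7 were. Against Pdr1-Sin3 the median was 0.20 and 0 of 36 were called, where 1.04% of all genes were called higher and 1.34% lower. Against Pdr1-Cyc8 the median was 0.28 and 6 were called higher, where 6.9% of all genes were.

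Among the lipid genes listed, the largest difference was in INO1, which encodes inositol-3-phosphate synthase, the enzyme that makes the inositol of phosphatidylinositol and sphingolipids. INO1 read 10.43, 13.11 and 12.63 with the empty vector and 9.03, 8.82 and 9.33 with Pdr1-Cyc8 in the deletion. It fell by 2.99 (SE 0.493, adjusted p = 0.0019), and the groups did not overlap although empty vector replicate 1 lay far below the other two. The other 3 groups were all near the higher empty vector values, with 12.49, 11.99 and 12.43 for Pdr1-Cyc8, 13.25, 12.63 and 12.38 for the deletion, and 11.63, 12.29 and 12.23 for Pdr1-Sin3. The difference was -2.99 against Pdr1-Sin3 (adjusted p = 0.00524) and -3.24 against Pdr1-Cyc8 (adjusted p = 0.00134), and both calls were kept under every alternative. PIS1, the phosphatidylinositol synthase gene, was called at 0.75 (adjusted p = 0.0364), and lost the call whichever of the 6 arrays was left out (0.0603 to 0.111); with median centring it was 0.45. Of 29 phospholipid genes 1 rose and 1 fell, the rest lay between -0.57 and 0.63, and the median was -0.09.

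Sphingolipid synthesis starts with serine palmitoyltransferase and leads through ceramide to inositol-containing sphingolipids. LAC1, a ceramide synthase gene and a PDR gene, read 8.83, 8.40 and 8.40 with the empty vector and 6.5, 5.85 and 6.30 with Pdr1-Cyc8 in the deletion. It fell by 2.33 (SE 0.227, adjusted p = 2.44e-05). IPT1, which makes the most complex of the inositol sphingolipids, read 8.37, 8.01 and 7.90 against 6.20, 7.01 and 6.38, and fell by 1.57 (SE 0.322, adjusted p = 0.00771). The hydroxylase genes SUR2 and SCS7 gave -1.07 (adjusted p = 0.0123) and -1.06 (adjusted p = 0.0112). SUR2 lost its call without fusion replicate 1 (adjusted p = 0.0594), and SCS7 without replicate 2 of either group (0.0511 to 0.0548). TSC3, which stimulates serine palmitoyltransferase, was higher by 1.03 (adjusted p = 0.0124), a call lost without empty vector replicate 2 or fusion replicates 1 or 3 (0.0511 to 0.056). In sum 4 of 29 sphingolipid genes fell and 1 rose, and the median was 0.10. LAC1, IPT1 and SUR2 also count among the PDR lipid genes below.

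Sterol and fatty acid synthesis showed few differences. Of 29 ergosterol and sterol handling genes, ARE1, a sterol acyltransferase, was called at -0.73 (adjusted p = 0.0402) and lost the call whichever of the 6 arrays was left out (0.06 to 0.144). The other 28 lay between -1.07 and 0.75, and the median was 0.02. Of 12 fatty acid synthesis genes, ELO1, an elongase, was called at 1.02 (adjusted p = 0.0353), and lost the call without replicate 2 of either group, empty vector replicate 3 or fusion replicate 1 (0.0944 to 0.13). The median of these 12 was -0.01.

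Some of the known targets of Pdr1 fell, most of them pumps and lipid genes. YOR1, a pump that exports oligomycin, read 9.71, 10.16 and 10.30 with the empty vector and 7.12, 6.90 and 6.99 with Pdr1-Cyc8 in the deletion. It fell by 3.06 (SE 0.343, adjusted p = 8.49e-05). SNQ2, another multidrug pump, read 10.11, 10.22 and 9.89 against 7.84, 7.71 and 8.02, and fell by 2.22 (SE 0.264, adjusted p = 0.000127). PDR5, the main drug efflux pump, read 10.68, 11.14 and 10.71 against 9.38, 9.63 and 8.60, and fell by 1.64 (SE 0.326, adjusted p = 0.00645). None of these 3 pumps overlapped between the groups. Of 6 other probe sets for YOR1, 5 were called lower, with values from -2.71 to -0.71. Of 6 other probe sets for PDR5, 5 were also called lower (-2.67 to -0.29). TVS1 fell by 1.65 (SE 0.238, adjusted p = 0.000627), and its 2 other probe sets were called lower at -2.58 and -1.03. The calls numbered 4 among 7 PDR transporter genes measured, whose median was -1.64. The other 3, TPO1, PDR15 and PDR10, were at -0.95, -0.53 and -0.34 (adjusted p = 0.167, 0.261 and 0.423). The 7 genes averaged 9.05 to 9.40 per array with the empty vector, 9.08 to 9.79 in the deletion without the fusion and 7.69 to 7.74 in the fusion group.

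PDR16, which encodes a transfer protein for phosphatidylinositol, read 9.74, 10.08 and 9.96 with the empty vector and 7.13, 7.32 and 7.77 with Pdr1-Cyc8 in the deletion. It fell by 2.52 (SE 0.256, adjusted p = 3.5e-05). ICT1, a lysophosphatidic acid acyltransferase, read 8.93, 10.34 and 10.77 against 7.22, 7.51 and 7.61, and fell by 2.57 (SE 0.425, adjusted p = 0.00194). With LAC1, IPT1 and SUR2 these made 5 of 8 PDR lipid genes that fell, and the median of the 8 was -1.32. The other 3, PDR17, RTA1 and RSB1, were at 0.02, 0.05 and 0.51 and did not pass. The 8 genes averaged 8.13 to 8.22 per array with the empty vector, 7.85 to 8.17 in the deletion without the fusion and 6.94 to 7.03 in the fusion group. GRE2, an NADPH-dependent reductase gene, read 8.06, 8.41 and 8.32 against 5.82, 5.36 and 5.54, and fell by 2.69 (SE 0.198, adjusted p = 4.77e-06). It was the only 1 of 10 other PDR genes to pass, and all 10 had values below 0 (median -0.50). PDR3, the paralog of PDR1 and itself a regulator of PDR genes, gave -0.52 (SE 0.184, adjusted p = 0.0912).

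YOR1, SNQ2 and PDR5 were also set against the other fusions. Against Pdr1-Cyc8 with endogenous PDR1, YOR1 differed by -2.36 (adjusted p = 0.000961) and SNQ2 by -1.79 (adjusted p = 0.00103), whereas PDR5 gave 0.57 (adjusted p = 0.278). Against Pdr1-Sin3, within the second spike-in pattern, YOR1 differed by -1.82 (adjusted p = 0.0116) and SNQ2 by -1.23 (adjusted p = 0.0224), whereas PDR5 gave 0.51 (adjusted p = 0.463). The YOR1 values were kept under every alternative in both comparisons. The SNQ2 difference from Pdr1-Sin3 lost its call without fusion replicates 1 or 2 or Pdr1-Sin3 replicates 1 or 3, with an adjusted p of up to 0.0989. GRE2 differed by -1.11 from Pdr1-Cyc8 (adjusted p = 0.00413) and by -1.98 from Pdr1-Sin3 (adjusted p = 3.79e-05), while the PDR16 differences were -1.13 (adjusted p = 0.0127) and -1.57 (adjusted p = 0.00487). The PDR16 difference from Pdr1-Cyc8 lost its call without Pdr1-Cyc8 replicate 2, without fusion replicate 1 and in a fit of only the groups compared, with an adjusted p of up to 0.0592.

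**Figure D4:**
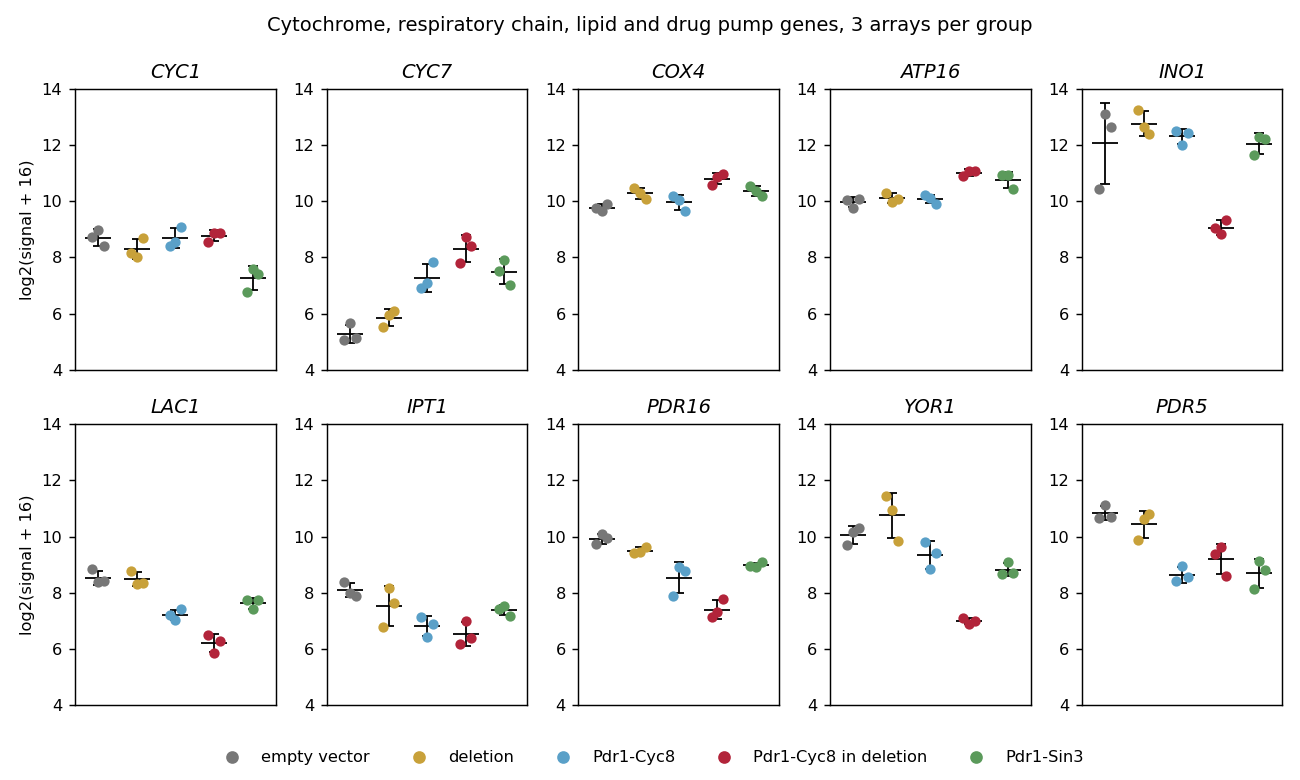
Levels of cytochrome, respiratory chain, lipid and drug pump genes (log2(signal + 16), vertical axis) in the 5 groups, with points for the 3 arrays of a group, horizontal bars for the mean and error bars for 1 SD. INO1 is low with Pdr1-Cyc8 in the deletion alone, and YOR1 is lowest in that group, whereas PDR5 lies below the empty vector in all 3 groups with a fusion.

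**Figure D5:**
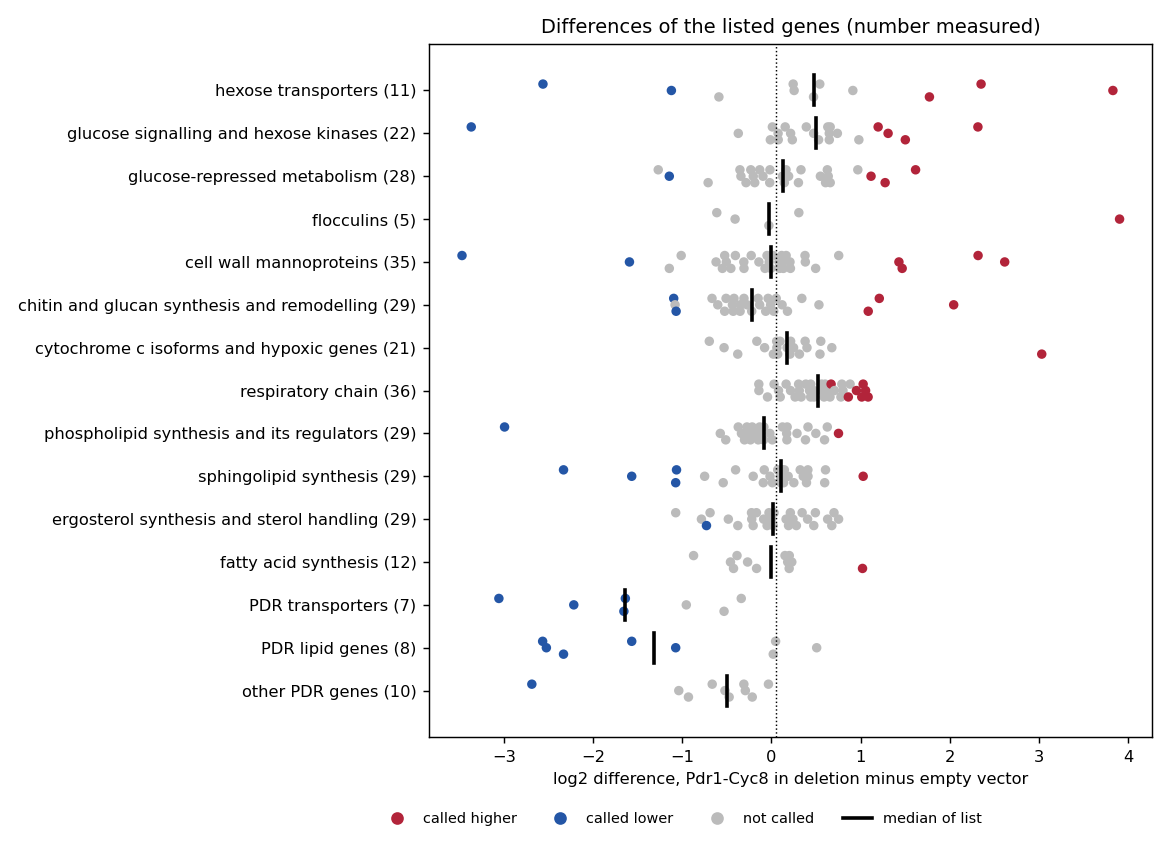
Differences between Pdr1-Cyc8 in the deletion and the empty vector (log2, horizontal axis) for every measured gene of 15 gene groups, 1 point per gene by its brightest probe set. Red and blue points passed the test as higher and lower, gray points did not, thick bars are the median of each group, and the dotted line is the median over all genes, 0.05; the PDR transporters and PDR lipid genes have the lowest medians (-1.64 and -1.32).

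Stress, glycogen and ribosome genes were measured beside these groups because they follow growth and glucose. Of 31 stress and glycogen genes 10 rose and 1 fell, with a median of 0.80. Their mean level was lowest with the empty vector, at 8.07 to 8.57 per array, against 8.78 to 9.03 in the fusion group, 8.73 to 9.22 in the deletion, 9.38 to 9.69 with Pdr1-Sin3 and 8.89 to 9.38 for Pdr1-Cyc8. Against Pdr1-Sin3 1 was called higher and 5 lower (median -0.57), and against Pdr1-Cyc8 2 were called higher and 4 lower (median -0.16). GLC3, the glycogen branching enzyme, read 7.26, 7.99 and 7.09 against 9.58, 9.51 and 9.47, a rise of 2.07 (SE 0.269, adjusted p = 0.000238), and GSY1, a glycogen synthase gene, rose by 2.05 (SE 0.362, adjusted p = 0.00319). GPD1, which makes glycerol-3-phosphate, rose by 1.73 (adjusted p = 0.00197), GDB1, the glycogen debranching enzyme, by 1.45 (adjusted p = 0.0101), and SIP18, a desiccation tolerance gene, by 1.43 (adjusted p = 0.00401), or 0.82 with a pseudocount of 64. SOL4, of the pentose phosphate pathway, was called at 1.5 (adjusted p = 0.0123) and lost the call without replicate 3 of either group (0.0527 to 0.0536). The member called lower, GND2 of the same pathway, was at -1.04 (adjusted p = 0.0194) and lost the call without replicates 1 or 3 of either group (0.0511 to 0.0693). Ribosome assembly genes averaged 9.11 to 9.68 on the empty vector arrays and 9.40 to 9.45 on the fusion arrays. Of 40 measured, 1 was called against the empty vector, TIF6 at 1.11 (adjusted p = 0.0212), and the median was -0.05. The TIF6 call was lost without empty vector replicate 3 or fusion replicates 1 or 3 (0.0641 to 0.0829). Against Pdr1-Sin3 the median of the 40 was 0.65 and 0 were called, where 1.04% of all genes were called higher and 1.34% lower. Against Pdr1-Cyc8 it was 0.75 and 3 were called higher, where 6.9% of all genes were. The part of stress and glycogen genes in the glucose values was not tested.

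Outside the gene groups, 4 genes were among the 8 with the largest called rises or the 8 with the largest called falls. YRO2, which encodes a membrane protein, read 10.86, 10.69 and 10.66 with the empty vector and 7.41, 7.78 and 8.53 with Pdr1-Cyc8 in the deletion. It fell by 2.83 (SE 0.322, adjusted p = 8.54e-05). SPS100, a spore wall gene, read 6.22, 5.59 and 6.08 against 8.56, 8.08 and 8.79, a rise of 2.51 (SE 0.3, adjusted p = 0.000127). The reading frame YBR219C rose by 2.55 (SE 0.32, adjusted p = 0.000192), or 1.65 with a pseudocount of 64. YNCL0044W, a tRNA gene in RefSeq, rose by 2.80 (SE 0.469, adjusted p = 0.00215), with empty vector replicate 3 at 4.74 below the other two at 6.54 and 7.01. SPS100 was also higher than with Pdr1-Sin3 (1.65, adjusted p = 0.00951) and than with Pdr1-Cyc8 (1.87, adjusted p = 0.00195), under every alternative tried.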

How the data were processed

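The deposited values were linear intensities, 1 per probe set and array of the YG-S98 platform. The sources used here do not give the software, background correction or scaling behind these intensities. All arrays shared a trimmed mean of 500.5 to 500.7 (2% left out at each end), so scaling preceded deposit, and no detection calls were used. Sample groups came from the titles.

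Values were quantile normalised over all 15 arrays and converted to log2(value + 16). Of 9335 probe sets, 60 controls were left out, and 9275 were fitted with limma 3.58.1 in R 4.3.3 on 5 groups (10 residual and 5.35 prior degrees of freedom), with Benjamini-Hochberg adjustment in each comparison. Per the platform annotation 6504 probe sets matched 1 gene, 328 several and 2443 none, covering 5656 genes, each represented by its brightest probe set. Symbols were checked against RefSeq.

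The 21 gene lists hold 415 genes, of which 405 were measured. Members, lists and the naming rule were chosen with earlier results of these data known. The rule names 14 fixed genes, the 8 largest called rises and falls, and up to 6 called genes per list and direction, and gave 70 genes. Comparisons that share arrays were given side by side. Fits were tested on simulated data. The 15 alternatives per comparison were the values as deposited, median centring, the dimmest 25% left out, pseudocounts of 1 and 64, an intensity trend with a robust prior, only the groups compared, array weights, the replicate number as a block, and each of 6 arrays left out. Figures were drawn with matplotlib 3.10.9.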

Additional observations from a re-analysis of the deposited data

Results flagged for a closer look

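Outside the tested probe sets, 3 yeast control probe sets with a mean signal above 100 read higher on all 3 Pdr1-Cyc8 in deletion arrays than on any empty vector array, as linear intensities deposited by the authors. Over all genes, 20.2% were higher without overlap between the groups and 11.7% lower. How many controls had a mean signal above 100 is not given here. A 25S ribosomal RNA control averaged 165.8 (144.4 to 194.3) against 55.5 (37.2 to 69.6). The 3' control for SRB4 averaged 210.3 (195.6 to 224.4) against 157.9 (147.5 to 168.8), and the middle control for ACT1, the actin gene, averaged 9323 (8968.7 to 9740.5) against 8608 (8321 to 8893.2). On the log2 scale the 25S controls averaged 6.38 to 6.75 with Pdr1-Cyc8 in the deletion and 6.23 to 7.00 with Pdr1-Sin3, the other group of the second spike-in pattern. In the groups of the first pattern the averages were 5.56 to 5.92 for Pdr1-Cyc8, 5.71 to 6.12 for the empty vector and 5.81 to 6.73 for the deletion, which overlaps both groups of the second pattern. The 18S controls averaged 6.04 to 6.28 with Pdr1-Cyc8 in the deletion and 6.91 to 7.18 with Pdr1-Sin3, without overlap. For 18S the other groups were at 5.24 to 5.71 for Pdr1-Cyc8, 5.64 to 5.83 for the empty vector and 5.70 to 6.54 for the deletion. The difference between the 3' and 5' controls of ACT1 was 0.48 to 0.86 with Pdr1-Cyc8 in the deletion and 0.68 to 0.78 with the empty vector.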

How the results depend on the processing

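Of 65 named genes called against the empty vector, 43 kept the call under all 15 alternatives and 22 lost it under at least 1, most often when 1 array was left out (13 to 16 genes per array). Median centring ended 10 calls, a pseudocount of 1 ended 8 and 64 ended 2, the fit of only the groups compared ended 6, the values as deposited ended 5, and the intensity trend, array weights and leaving out the dimmest 25% ended 0. With 1 array left out SIN3 ran from -0.0287 (without Pdr1-Cyc8 in deletion replicate 3) to 0.231, and CYC1 from -0.0881 (without empty vector replicate 3) to 0.205; neither was called. Against Pdr1-Sin3 13 of 24 named calls were kept under every alternative, and against Pdr1-Cyc8 19 of 37. Array weights gave 632 probe sets higher and 581 lower against the empty vector (1213), and 530 called against Pdr1-Sin3, where a pseudocount of 1 gave 141 and only the groups compared 415, from 234. With 1 array left out, 199 to 284 were higher and 171 to 284 lower against the empty vector (370 to 544 in all), 67 to 171 were called against Pdr1-Sin3 and 431 to 934 against Pdr1-Cyc8, from 1040. For these counts the cause was not tested, beyond the smaller number of samples. Same-numbered cultures correlated at 0.08, -0.06 and 0.01 after group means were removed, and 2 of 6 arrays correlated best with their own number. Between Pdr1-Cyc8 in the deletion and the empty vector, these values showed no sign of pairing by number. With 3 cultures per group they cannot exclude it. With the replicate block 358 probe sets were higher and 326 lower (684), 166 were called against Pdr1-Sin3 and 825 against Pdr1-Cyc8, and 5 named calls against the empty vector were lost. Without detection calls, differences of dim genes rest on the pseudocount: 858 to 1129 probe sets on the Pdr1-Cyc8 in deletion arrays and 1165 to 1313 on the empty vector arrays had a signal under 16.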

Other observations

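Among 91 tRNA genes whose probe set was annotated to 1 gene, 46 were called higher and 0 lower against the empty vector. Their median difference was 1.08, and 5.32% of all genes were called higher. Probe sets annotated to 1 gene can still read near-identical genes, so these may not be 91 separate readings. The median tRNA level was 6.41 to 6.75 on the empty vector arrays, 7.30 to 7.67 with Pdr1-Cyc8 in the deletion, 7.01 to 7.56 with Pdr1-Sin3, 6.68 to 7.18 in the deletion and 6.49 to 6.90 with Pdr1-Cyc8. Against Pdr1-Sin3, in the same spike-in set, 5 tRNA genes were called higher and 0 lower, with a median of 0.28. In that comparison 1.04% of all genes were called higher. Against Pdr1-Cyc8, 29 tRNA genes were called higher and 0 lower (median 0.83), where 6.9% of all genes were called higher. Of 57 snoRNA genes, which guide the modification of ribosomal RNA, 10 were called higher and 0 lower against the empty vector (median 0.40). For snoRNA genes the counts were 1 higher and 1 lower against Pdr1-Sin3 (median 0.18), and 21 higher and 0 lower against Pdr1-Cyc8 (median 0.80). The tRNA medians of the Pdr1-Cyc8 in deletion arrays lay above those of all 9 arrays of the first spike-in set, whereas those of Pdr1-Sin3 overlapped the deletion, and the part of the spike-in set was not tested. Of 5486 protein-coding genes, 244 were called higher and 136 lower (median 0.04).

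Mating-type genes gave few calls against the empty vector. Of 7 a-specific genes 1 fell, BAR1, the protease that degrades alpha factor, with 10.23, 10.06 and 10.80 against 9.24, 8.82 and 9.02 (-1.33, SE 0.256, adjusted p = 0.00525). Of 4 alpha-specific genes 0 were called, and the median was -0.44. Of 8 haploid-specific genes 1 rose, STE4, the beta subunit of the pheromone G protein, with 9.72, 9.63 and 9.68 against 10.66, 10.52 and 10.60 (0.91, SE 0.174, adjusted p = 0.00501). Against Pdr1-Cyc8 with endogenous PDR1, 5 of the 7 a-specific genes were called lower, where 3.68% of all genes were, and BAR1 was at -2.10 (adjusted p = 0.000218).

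Probe sets that match several genes held 55 of the 370 lower calls and 10 of the 414 higher calls, from 328 such probe sets. Those without a listed gene held 90 lower and 82 higher calls, from 2443. Those that match 1 gene held 225 lower and 322 higher calls, from 6504. All calls together were 8.45% of the 9275 probe sets tested.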
